A study of Rattus norvegicus with 4 samples.

Results

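The regions described here are the H1T2 peaks of the rat testis that lay in copies of the L1_Rn family of LINE-1 elements and outside the introns of annotated genes. A peak was taken when the authors' repeat annotation placed it in L1_Rn and their gene annotation did not place it in an intron. The authors annotated the whole list of 11570 peaks, but the copy of their table used here was cut off after its first 1930 rows, the peaks of the smallest p-values, which are called annotated peaks below. Within these rows the rule found 389 peaks among 475 in L1_Rn, so that membership depended on the p-value as well as on the annotation. These 389 are called L1_Rn peaks below, whereas the 86 others are called intronic L1_Rn peaks.

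LINE-1 elements are retrotransposons that copy themselves through an RNA intermediate, and L1_Rn is a family of such elements of the rat. Full-length elements carry a promoter at the 5′ end and code for the proteins needed for their own mobilization, while most copies in a mammalian genome are truncated at the 5′ end. H1T2 is a linker histone made in spermatids, the haploid cells in which histones are replaced first by transition proteins and then by protamines. It gathers at the apical pole of the spermatid nucleus, beneath the acrosome. The germ line holds LINE-1 elements in check through DNA methylation, histone marks and PIWI-bound small RNAs. The age of the L1_Rn copies was not measured, as the list holds no divergence from a consensus.

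The samples were 2 H1T2 IP samples and 2 Input samples, all of nuclei from testes of rats aged 35 to 50 days. The IP used an antibody to H1T2, the Input was a part of the same kind of sonicated chromatin without IP, and genotype and strain are not given in the sources used here. The labels name the cells as round and elongating spermatids, although the nuclei came from whole testes, and a list of peaks holds no marker by which this could be checked. The header of the list names a merged IP and a merged Input, so that each peak has 1 set of values and no spread between replicates is known for any value below.

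After the limit on tags at the same position, the merged IP held 16203958 tags (47.6% of its total) and the merged Input 78371120 (93.8%). The pileup is the number of IP tags over the summit. Fold enrichment sets this pileup against a local background, for which the caller takes the largest of several counts of Input tags around the peak, brought to the depth of the IP, and never less than the 1.65 tags that an even spread over the genome would give. All 11570 pileups were even numbers, and tags were therefore taken as pairs that count once in every interval and p-value computed here. The interval given with a fold enrichment is the exact 95% Poisson interval of its IP counts, which covers counting error only. The rows of the annotation table that were available reach down to a -log10 p-value of 17.78 and cover 16.7% of the list. This limit belongs to the copy used and was not set by the authors. The L1_Rn peaks thus belong to the upper end of the list, and L1_Rn copies under weaker peaks are not counted, so that counts and comparisons of repeats below hold for these rows alone. Only reads with a unique alignment were kept, and how much of the L1_Rn sequence such reads can reach was not measured.

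Of the 389 L1_Rn peaks, 370 (95.1%, 95% Wilson interval 92.5 to 96.9%) were annotated as intergenic. The other 19 had no category, and all 19 lay on contigs assigned to chromosome Y. None was annotated to an exon, a UTR or a promoter. The rule had left introns out. Whether the annotation gives a repeat name at all to peaks in exons, UTRs or promoters was not checked. The intergenic share was thus set at least in part by the choice of peaks, and nothing is read from it. L1_Rn peaks outside introns made up 20.2% of the annotated peaks. Within the available rows they were fewer than RatSatRep2 peaks outside introns, of which there were 453, and RatSatRep2 is a rat repeat that the annotation puts in no class. All other peaks outside introns whose repeat was of the class LINE are called other L1 peaks outside introns below, although their family was not checked. They numbered 237, of which 111 were in RNHAL1 and 110 in L1_Rat1.

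The pileup of the L1_Rn peaks ranged from 22 to 146 tags, with a median of 40 tags (95% interval of the median 38 to 44, quartiles 32 and 52). Their local background ranged from 1.65 to 28.4 tags, with a median of 4.96 tags (95% interval 4.55 to 5.54). Fold enrichment ranged from 4.13 to 25.2 and had a median of 8.32 (95% interval 8.02 to 8.60, quartiles 6.70 and 10.3). The background thus varied 17.2-fold between the lowest and the highest L1_Rn peak, the pileup 6.64-fold and the fold enrichment 6.11-fold. The intervals of the medians are exact binomial ones and treat peaks as independent, although copies of 1 family share their sequence.

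Pileup and fold enrichment were also read by background. Among the 98 peaks of the lowest background, at most 3.41 tags, the median pileup was 28 tags and the median fold enrichment 11.4. Among the 97 peaks of the highest background, at least 7.65 tags, the median pileup was 60 tags and the median fold enrichment 6.07. To reach a -log10 p-value of 17.78, a peak over a low background needs a large fold and a peak over a high background a large pileup, and the smallest pileup was 22 tags in the former group and 42 in the latter. Both orders therefore follow at least in part from the cut in the table, and nothing is read from them.

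**Figure D1:**
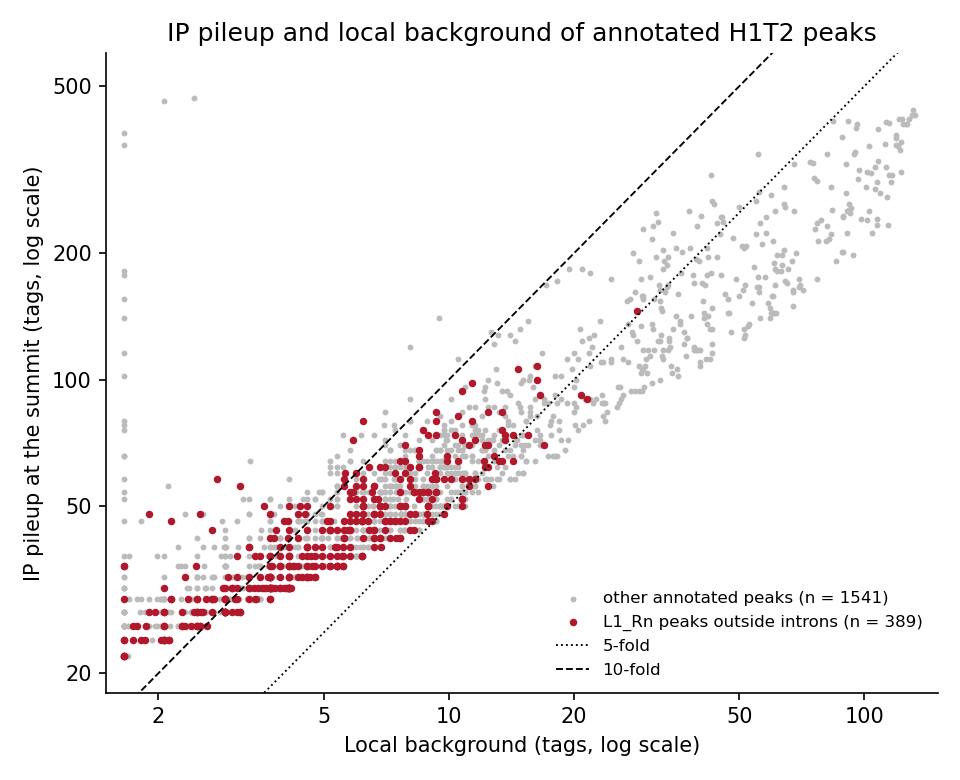
IP pileup at the summit against local background, both in tags on log axes, for 389 L1_Rn peaks outside introns (red) and 1541 other annotated peaks (grey), with lines at 5-fold and 10-fold. Each point is 1 peak of the merged samples, and the L1_Rn peaks reach a pileup of 146 tags and a background of 28.4 tags, whereas other annotated peaks reach a background of 132 tags.

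When pairs counted once, all 389 L1_Rn peaks had a Poisson p-value of at most 1e-05, against 69.6% of the whole list. As the available rows are those of the smallest p-values, this count was set by the cut and says nothing particular to L1_Rn. At least 5-fold enrichment was found at 377 L1_Rn peaks (96.9%, 95% Wilson interval 94.7 to 98.2%), against 68.6% of the whole list and 81.1% of the annotated peaks. Most of the whole list lies below the cut. The annotated peaks reach a background of 132 tags, over which a smaller fold passes the cut, and the L1_Rn peaks one of 28.4 tags. This share thus follows at least in part from the cut. The share was similar in the groups most like them, 96.2% of the other L1 peaks outside introns and 94.2% of the intronic L1_Rn peaks, and is therefore not particular to the L1_Rn peaks. At least 10-fold enrichment was found at 104 L1_Rn peaks (26.7%), close to the 26.1% of all annotated peaks, 22.1% of the intronic L1_Rn peaks and 23.0% of RatSatRep2 peaks. The share was higher, 40.1%, at the other L1 peaks outside introns. It was 7.87% over the whole list, most of which lies below the cut. The cut asks for a larger fold over a lower background, so that nothing is read from differences between these shares.

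Most L1_Rn peaks lay over a background above that of an even spread. When the background was converted back to Input tags, it gave a whole number at 299 of the 389 peaks (76.9%), within 0.02 tags and the rounding of the fold enrichment. Of these 299 numbers 177 (59.2%) were even, whereas the IP pileup was even at all 389 peaks. A peak was taken as called against the genome background when its own background lay within 0.01 tags of that value. Only 9 L1_Rn peaks (2.31%, 95% Wilson interval 1.22 to 4.34%) had been called in this way, while this held for 5.49% of the annotated peaks and 16.1% of the whole list. The share was 1.16% for intronic L1_Rn peaks, 0.221% for RatSatRep2 peaks and 7.17% for the other L1 peaks outside introns, so that a low share is not particular to the L1_Rn peaks. The median over the L1_Rn peaks corresponded to 24.0 Input tags in 200 bp, and an even spread of all Input tags over the effective genome would give 8.0. The largest of several estimates is always taken as the background, which raises this median. Where both counts were whole, the exact interval from IP and Input counts together had a lower limit of at least 2.70-fold at each of the 299 peaks, with a median lower limit of 4.14-fold. As these peaks were above the cut by the same counts, limits above 1 were set by it.

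The median length of the L1_Rn peaks was 337 bp (95% interval 323 to 352, quartiles 267 and 462), and the range ran from 200 to 1191 bp. The median was 267 bp (264 to 269) over the whole list and 355 bp (344 to 365) over the annotated peaks. At most 300 bp were spanned by 144 of them (37.0%) and at least 600 bp by 47 (12.1%). The 144 short peaks had a median pileup of 34 tags and a median fold enrichment of 9.14, and the 47 long peaks 54 tags and 7.69. The long peaks had more tags and a lower fold enrichment, over a median background of 7.44 tags against 3.72 tags at the short ones. These are the orders seen above by background, which follow at least in part from the cut, so that nothing is read from them.

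The L1_Rn peak of the smallest p-value lay on chromosome 11 of rn6, from 18174950 to 18175565. It held 80 tags over a background of 6.20 tags, 12.9-fold (95% interval 9.22 to 17.6), and its -log10 p-value of 59.22 ranked 144 in the list. The nearest TSS, at 490 kb, was that of Tmprss15, the intestinal protease that activates trypsinogen. The second, on chromosome 17 from 22736934 to 22737305, was nearest to LOC100362172 and held 98 tags over 11.4 tags, 8.62-fold (95% interval 6.38 to 11.4). Many peaks of other kinds thus stood before the first L1_Rn peak in the list.

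The peak nearest to Pde3b, the gene of a phosphodiesterase of cyclic nucleotides, reached its p-value in another way than that nearest to Marchf3, the gene of a membrane-bound ubiquitin ligase. On chromosome 1 from 183874938 to 183875236, 17.8 kb from the TSS of Pde3b, 58 tags lay over a background of 2.77 tags, 21.0-fold (95% interval 14.0 to 30.1). On chromosome 18 from 51999740 to 52000423, 3.10 kb upstream of the TSS of Marchf3, 146 tags lay over a background of 28.4 tags, 5.15-fold (95% interval 4.04 to 6.48). Their p-values were alike, 55.25 and 54.98 as -log10, and their intervals of fold enrichment did not overlap. The Marchf3 peak had the largest pileup and the highest background of all L1_Rn peaks.

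The remaining ones of the 10 most significant L1_Rn peaks varied as widely. They were nearest to Lrfn5, a synaptic adhesion gene (94 tags, 8.74-fold), the microRNA gene Mir384 on chromosome X (106 tags, 7.22-fold), Dab1, which codes for an adaptor of reelin signalling (72 tags, 12.3-fold), the olfactory receptor gene Olr1569 (108 tags, 6.61-fold), Tcerg1l (84 tags, 9.03-fold) and Srek1, a gene of a splicing regulator (48 tags, 25.2-fold). The Srek1 peak, on chromosome 2 from 33698997 to 33699254, had the largest fold enrichment of all L1_Rn peaks (95% interval 16.2 to 37.5). It was followed by a peak on a contig of chromosome Y and a peak 298 kb from the TSS of Txnl1, a thioredoxin-like gene, each with 36 tags over the genome background and 21.8-fold (95% interval 12.9 to 34.4). Next came a peak 240 kb from the TSS of the growth factor gene Fgf5, with 46 tags and 21.4-fold. These intervals overlap, so that the order among the largest fold enrichments is not fixed by the counts.

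The largest pileups after that of Marchf3 were those nearest to Olr1569, Mir384 and Fundc1, a gene of a mitophagy receptor, with 108, 106 and 100 tags. The longest L1_Rn peak spanned 1191 bp on chromosome 9 from 83389179 to 83390369, 136 kb from the TSS of the ephrin receptor gene Epha4, and held 72 tags, 6.22-fold. It was followed in length by the Olr1569 peak of 1175 bp and the Dab1 peak of 1130 bp.

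At the lower end of the available rows, an L1_Rn peak 49.1 kb from the TSS of Picalm, a gene of clathrin assembly, and another on a contig of chromosome Y each had 30 tags, 8.06-fold (95% interval 4.51 to 13.3), with 17.78 as -log10 p-value. One more, 595 kb from the TSS of its nearest gene, the olfactory receptor gene Olr410, had 28 tags and a -log10 p-value of 17.84. It was tied with another L1_Rn peak of the same tags and p-value. The first peak after the cut had the same 30 tags, 8.06-fold enrichment and -log10 p-value of 17.78, and the next 2 had 24 tags, 11.2-fold and 17.77. Peaks on either side of the cut thus had the same values, although the peaks above it are as a whole the stronger ones.

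When the annotated peaks were ordered by p-value and divided into 5 groups of 386, L1_Rn peaks made up 38 of the first group (9.84%, 95% Wilson interval 7.26 to 13.2%). They numbered 70, 90, 93 and 98 in the following groups, 25.4% (95% interval 21.3 to 30.0%) in the last. The L1_Rn peaks were thus scarcer at the very top of the annotated peaks. Their median fold enrichment was 8.87 in the first group and 8.02 in the last, while their median pileup was 71 and 32 tags. As the p-value that set the groups comes from pileup and background, nothing is read from these orders.

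Median fold enrichment of the L1_Rn peaks was close to that of the other L1 peaks. Median fold enrichment was 8.32 at the L1_Rn peaks and 8.54 at the other L1 peaks outside introns (95% interval 7.91 to 9.57), a log2 difference of medians of -0.04. It was 7.68 at the 86 intronic L1_Rn peaks (95% interval 7.19 to 8.33), a log2 difference of 0.12. The interval of the L1_Rn peaks overlapped both. At least 10-fold enrichment, however, was found at 26.7% of the L1_Rn peaks (95% Wilson interval 22.6 to 31.3%) and 40.1% of the other L1 peaks outside introns (34.1 to 46.4%). Within the latter it was 45.5% (36.5 to 54.8%) in L1_Rat1 and 33.3% (25.3 to 42.5%) in RNHAL1, of which only the interval of RNHAL1 overlapped that of the L1_Rn peaks. Of the other groups, L1_Rat1 peaks had a median of 9.20 (95% interval 8.37 to 10.3), RNHAL1 peaks 7.88 (7.16 to 9.03) and RatSatRep2 peaks 7.64 (7.25 to 7.91), the last of which did not overlap that of the L1_Rn peaks. Peaks of 1 merged list are not replicates, and no difference between groups of peaks was tested. All these groups had passed the same cut, which asks for a larger fold over a lower background. Their medians of fold enrichment ran in the reverse order of their medians of background. Differences between the groups therefore follow at least in part from the cut, and nothing is read from them.

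The same groups differed in their tags. The median pileup was 40 tags at the L1_Rn peaks, 34 at L1_Rat1 peaks, 44 at RNHAL1 peaks and 46 at both intronic L1_Rn and RatSatRep2 peaks. Background followed the same order, with medians of 4.96 tags at the L1_Rn peaks, 3.74 at L1_Rat1, 5.58 at RNHAL1, 6.0 at intronic L1_Rn and 6.21 at RatSatRep2 peaks. The L1_Rn peaks were longer than L1_Rat1 peaks (median 337 against 286 bp) and shorter than RatSatRep2 peaks (400 bp). These orders also depend at least in part on the cut, so that nothing is read from them.

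**Figure D2:**
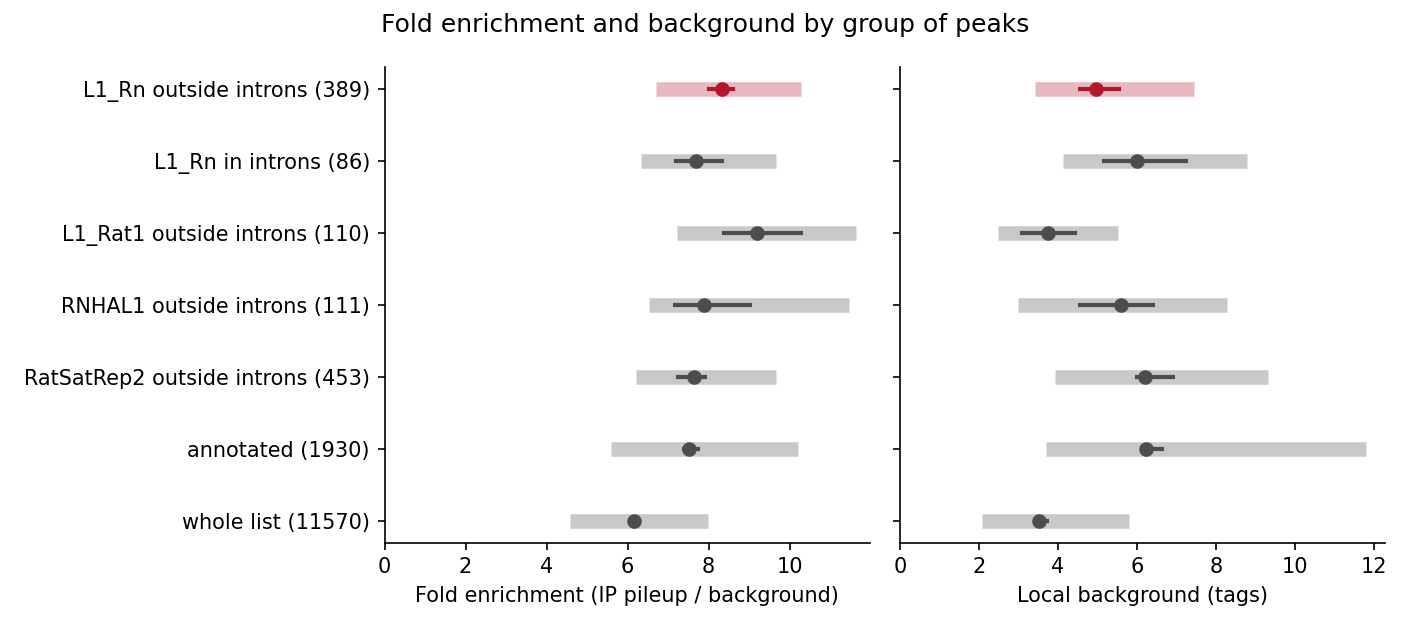
Fold enrichment (left) and local background in tags (right) by group of peaks, with the number of peaks in brackets. Points are medians, thick pale bars run from the lower to the upper quartile and thin dark bars are exact 95% intervals of the median. The L1_Rn peaks outside introns (red) have a median of 8.32-fold over 4.96 tags, and the whole list 6.15-fold over 3.52 tags.

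The list was also searched for other peaks around each L1_Rn peak, by the distance between summits. Within 10 kb, 117 of the 389 (30.1%, 95% Wilson interval 25.7 to 34.8%) had another peak of the list, of any kind. This share was 30.7% over the whole list, 41.9% over the annotated peaks and 18.6% (95% interval 14.1 to 24.0%) over the other L1 peaks outside introns. The share of the L1_Rn peaks was therefore near that of the list as a whole.

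The distances to neighbours were unevenly spread, for the L1_Rn peaks as for the whole list. In bins of 500 bp between summits, 24 neighbours lay at 500 to 1000 bp and 1 at 1000 to 1500 bp. From there to 5000 bp no bin held more than 9. The bin from 5000 to 5500 bp held 14, that from 5500 to 6000 bp held 31 and that from 6000 to 6500 bp held 10, and no bin from 6500 to 12000 bp held more than 5. Per 100 peaks, the bin from 500 to 1000 bp held 6.17 neighbours of L1_Rn peaks, 6.85 of the whole list and 12.1 of annotated peaks, and that from 5500 to 6000 bp held 7.97, 5.31 and 9.69, so that these distances are not particular to the L1_Rn peaks.

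A window of 5 to 6.5 kb was set after these distances were seen, and another peak in it was found for 52 L1_Rn peaks (13.4%, 95% Wilson interval 10.3 to 17.1%). In windows of the same width on either side, 23 (5.91%) had one at 3500 to 5000 bp and 8 (2.06%) at 6500 to 8000 bp. Over the whole list these shares were 10.9% at 5 to 6.5 kb, 7.23% below and 3.92% above, and over the annotated peaks, from which the L1_Rn peaks come, 18.9% (95% interval 17.2 to 20.7%), 13.8% and 9.07%. The share of the L1_Rn peaks at this distance was thus near that of the list and below that of the annotated peaks. RatSatRep2 peaks had a neighbour at 5 to 6.5 kb in 17.9% (95% interval 14.6 to 21.7%), intronic L1_Rn peaks in 20.9% (13.7 to 30.7%) and other L1 peaks outside introns in 4.22% (2.31 to 7.59%). The interval of the L1_Rn peaks did not overlap that of the other L1 peaks, and no test of the difference was made.

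**Figure D3:**
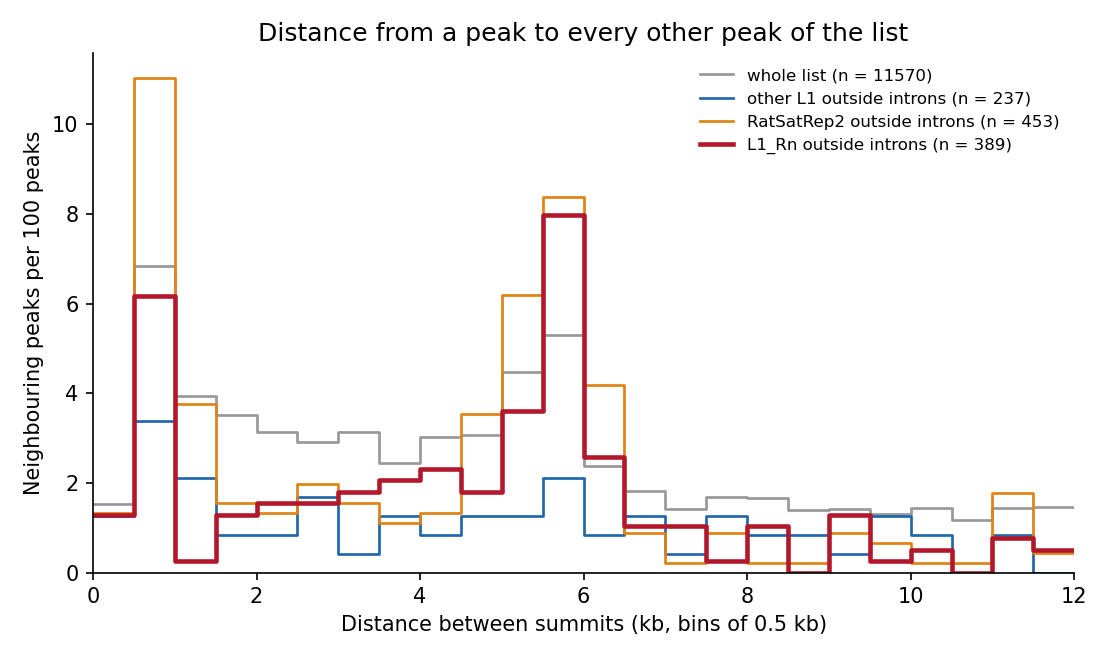
Number of neighbouring peaks per 100 peaks (vertical axis) by the distance between summits in kb, in bins of 0.5 kb (horizontal axis), for L1_Rn peaks outside introns (red, n = 389), other L1 peaks outside introns (blue, n = 237), RatSatRep2 peaks outside introns (orange, n = 453) and the whole list (grey, n = 11570). The L1_Rn peaks have 7.97 neighbours per 100 peaks in the bin from 5500 to 6000 bp, against 8.39 for RatSatRep2 peaks, 5.31 for the whole list and 2.11 for the other L1 peaks.

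The 52 L1_Rn peaks formed 52 pairs with 55 peaks at 5 to 6.5 kb, counting L1_Rn peaks on either side, at a median distance of 5712 bp (quartiles 5490 and 5944). Of the 55 partners, 6 were L1_Rn peaks themselves, 4 were RatSatRep2 peaks, 1 was an RNHAL1 peak and 44 lay below the cut in the annotation table. The 44 had a median pileup of 22 tags and a median fold enrichment of 4.84 (95% interval 4.4 to 5.29). The L1_Rn peaks with a partner had a median of 46 tags and 7.67-fold (95% interval 6.77 to 8.46), and the 337 without a partner 40 tags and 8.50-fold (8.13 to 8.74). A weaker partner follows from how L1_Rn peaks were chosen, since they are among the strongest peaks.

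In 3 of these pairs both peaks were L1_Rn peaks. On chromosome 1, upstream of Picalm, peaks from 154322407 to 154322786 and from 154328200 to 154328515 held 62 tags (7.31-fold) and 30 tags (8.06-fold), with 5817 bp between summits. On chromosome 2, nearest to the innate immune receptor gene Tlr2, peaks from 182830129 to 182830477 and from 182835925 to 182836416 were 6038 bp apart and held 44 tags (8.51-fold) and 32 tags (10.6-fold). On chromosome 4, 150 and 156 kb from the TSS of the sulfate transporter gene Slc13a1, peaks from 51349041 to 51349749 and from 51354981 to 51355205 were 5591 bp apart and held 50 tags (8.06-fold) and 34 tags (8.22-fold). In each pair the intervals of fold enrichment overlapped. The pairs were chosen after their distances were seen.

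At shorter range, 28 L1_Rn peaks (7.20%, 95% Wilson interval 5.03 to 10.2%) had another peak within 1 kb, against 8.09% of the whole list, 13% of the annotated peaks and 12.1% of RatSatRep2 peaks. The closest was a peak on chromosome X from 17228054 to 17228288, 211 kb from the TSS of Bmp15, a growth factor gene of the oocyte. It held 50 tags, 8.06-fold (95% interval 5.22 to 11.9), and 379 bp away a peak below the cut held 30 tags, 3.45-fold (95% interval 1.93 to 5.69). The neighbour had the higher background, 8.70 against 6.20 tags.

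L1_Rn peaks were found on every autosome and on the X and Y chromosomes. Chromosome 1 held 49, chromosome 2 held 45 and chromosome X held 37, and the fewest were on chromosomes 12 and 20, with 2 and 3. Per Mb up to the last peak of the chromosome, the density among the autosomes and X was highest on X, 0.231 (95% exact Poisson interval 0.163 to 0.319), followed by chromosome 11 with 0.199 (0.118 to 0.314) and chromosome 1 with 0.173 (0.128 to 0.229). It was lowest on chromosome 12, 0.0380 (0.00460 to 0.137). The intervals of X and chromosome 11 overlap widely, so that these do not differ beyond counting error. The assembled chromosome Y, left out of this order, held 3 L1_Rn peaks in 2.96 Mb, and the interval of its density, 0.209 to 2.97 per Mb, overlaps that of X.

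Over all autosomes together, 328 L1_Rn peaks gave 0.125 per Mb (95% interval 0.112 to 0.140), and the density on X was 1.85 times as high (95% interval 1.28 to 2.60, exact for a ratio of counts). The same ratio was 0.979 (0.902 to 1.06) over the whole list, 1.15 (0.947 to 1.38) over the annotated peaks, 1.33 (0.899 to 1.91) for RatSatRep2 and 1.39 (0.808 to 2.25) for the other L1 peaks outside introns. The interval of the L1_Rn peaks lay above that of the whole list and overlapped those of the annotated peaks and of both repeat groups. Among the intronic L1_Rn peaks, with 3 on X and 83 on autosomes, the ratio was below 1, at 0.591 (0.120 to 1.79), and its interval also overlapped. The density of L1_Rn copies on each chromosome was not used here, so that densities of peaks cannot be set against it. As a share, X held 9.51% of the L1_Rn peaks (95% Wilson interval 6.98 to 12.8%), against 6.27% of all annotated peaks and 5.46% of the list.

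**Figure D4:**
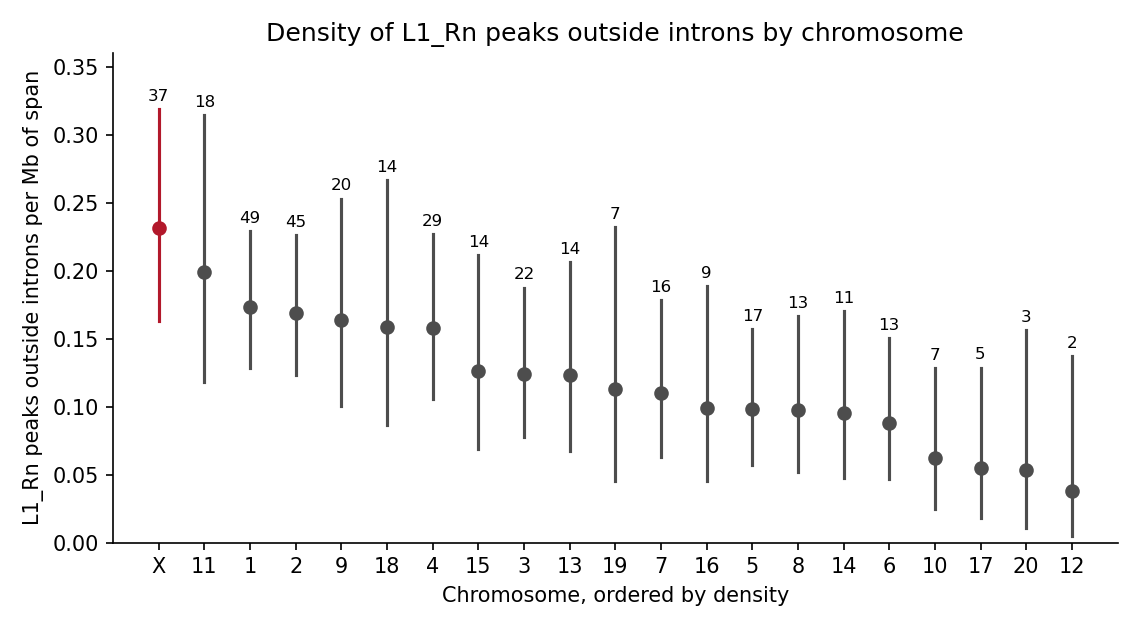
L1_Rn peaks outside introns per Mb of chromosome span up to the last peak (vertical axis), for the autosomes and X in order of density (horizontal axis), without Y. Points are densities, bars are exact 95% Poisson intervals and numbers are counts of peaks; among these, X (red) is highest at 0.231 per Mb and chromosome 12 lowest at 0.0380 per Mb.

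The intervals of the fold enrichment on X, Y and autosomes overlapped. Median fold enrichment was 8.06 on X (95% interval 7.22 to 9.03), 8.33 on Y and its contigs (7.03 to 11.2) and 8.35 on autosomes (8.02 to 8.60). The median background was 5.99 tags on X, 3.91 on Y and 4.76 on autosomes, and their 95% intervals overlapped.

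Chromosome Y and its contigs held 24 L1_Rn peaks (6.17%, 95% Wilson interval 4.18 to 9.02%), against 3.42% of the annotated peaks and 2.69% of the list. The share was nearly the same for RatSatRep2 peaks outside introns, 5.96% (4.13 to 8.53%), while it was 1.69% (0.658 to 4.26%) for the other L1 peaks outside introns, and none of the 86 intronic L1_Rn peaks was there. Of the 24, 19 had no category in the gene annotation, so that the rule on introns could not act on them. Only 3 were on the assembled chromosome and 21 were on 11 contigs assigned to it. The 3 on the assembled chromosome were nearest to Usp9y, the gene of a Y-linked deubiquitinase, at 56.7, 173 and 1290 kb from its TSS. They held 44, 52 and 92 tags, and their fold enrichments of 6.86, 4.84 and 5.56 all lay below the median of the L1_Rn peaks.

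A nearest TSS was given for 370 L1_Rn peaks. The median distance was 163 kb (95% interval 129 to 199, quartiles 48.8 and 423 kb), and the longest 7319 kb. Within 10 kb of a TSS were 28 peaks (7.57%, 95% Wilson interval 5.29 to 10.7%), against 8.82% of the annotated peaks, and more than 500 kb away were 80 (21.6%, 95% interval 17.7 to 26.1%), against 18.5%. The median was 119 kb for all annotated peaks, 178 kb (133 to 233) for the other L1 peaks outside introns and 148 kb (119 to 185) for RatSatRep2 peaks. The annotated peaks came as close as 0.046 kb to a TSS, the L1_Rn peaks 1.22 kb. As the annotated peaks include intronic ones, which the rule leaves out, comparisons of distance with them depend in part on the rule. The L1_Rn peaks lay upstream of the nearest TSS in 217 cases (58.6%) and downstream in 153. The upstream share was 58.4% for the other L1 peaks outside introns, 56.0% for RatSatRep2 peaks and 52.7% for all annotated peaks, and intronic peaks, of which 77 of the 86 in L1_Rn lay downstream, had been left out by the rule.

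The 9 peaks within 5 kb of a TSS were next to genes of several kinds. The nearest, 1.22 kb upstream of the vomeronasal receptor gene Vom2r59 on chromosome 12 from 3968128 to 3968425, held 26 tags, 12.6-fold (95% interval 6.70 to 21.5). Olfactory receptor genes followed with Olr196 (2.29 kb upstream, 58 tags, 7.58-fold), Olr1569 (2.57 kb downstream, 108 tags, 6.61-fold), Olr304 (4.01 kb downstream, 70 tags, 6.27-fold) and Olr155 (4.68 kb upstream, 64 tags, 6.07-fold). The peak at Nup160, which codes for a nuclear pore protein, lay 3.73 kb upstream and held 80 tags, 8.60-fold (95% interval 6.14 to 11.7). Besides Marchf3, the last 2 were both assigned to Spink6, a gene of a serine protease inhibitor, at 2.43 kb on chromosome 18 (34 tags, 9.14-fold) and 2.50 kb on chromosome 2 (34 tags, 7.83-fold). Why the annotation gives this gene on both chromosomes was not tested.

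Chemosensory receptor genes were the nearest genes of 35 L1_Rn peaks (9.46%, 95% Wilson interval 6.88 to 12.9%), against 6.46% of the annotated peaks. These are large families of genes in clusters, which are expressed in sensory neurons of the nose and, for some members, in male germ cells. The share was 8.56% (6.28 to 11.6%) for RatSatRep2 and 3.90% (2.06 to 7.24%) for the other L1 peaks outside introns, and all 3 intervals overlapped. The 35 peaks were nearest to 33 genes, of which Olr155 and Olr410 had 2 peaks each, and 15 of the 35 were within 10 kb of the TSS. The places of these genes are those of the annotation and were not checked. Their fold enrichment ranged from 4.19 at Olr448 (90 tags over 21.5 tags) to 13.95 at Olr892 (30 tags over 2.15 tags), with a median of 7.86.

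On chromosome 1, 2 peaks next to Olr155 had summits 525 bp apart, from 169584832 to 169585217 with 40 tags and 5.83-fold (95% interval 3.56 to 9.0), and from 169585437 to 169585817 with 64 tags and 6.07-fold (4.15 to 8.57). Within 10 kb were also Olr27, Olr516, Olr531, Olr584, Olr865, Olr1082, Olr1084, Olr1683 and Vom2r52, of which the Olr531 peak had the largest fold enrichment (48 tags, 12.9-fold, 95% interval 8.27 to 19.2). At greater distances were Olr206, Olr384, Olr901, Olr1229, Olr1280, Olr1315, Olr1416, Olr1455, Olr1565, Olr1576, Olr1635, Olr1733, Olr1767, Vom1r99, Vom2r26 and Vom2r47. The Olr410 peaks were 595 and 1672 kb away, so that a nearest gene does not always mean a near one.

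Of 24 spermiogenesis genes, 2 were nearest to an L1_Rn peak. Actl9, an actin-like gene of the testis, had a peak 12.1 kb upstream on chromosome 7 from 18298288 to 18298772, with 48 tags and 10.65-fold (95% interval 6.82 to 15.8), and another at 262 kb with 52 tags and 8.67-fold. Akap4, which codes for the main anchoring protein of the fibrous sheath of the sperm tail, lay 206 kb from a peak on chromosome X with 84 tags, 6.25-fold (95% interval 4.5 to 8.45). No gene of H1T2, protamines or transition proteins was nearest to an L1_Rn peak. The 3 peaks made up 0.811% of the L1_Rn peaks with a gene (95% Wilson interval 0.276 to 2.36%), against 0.323% of the annotated peaks.

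None of 21 genes of LINE-1 silencing was nearest to an L1_Rn peak, 0 of 370 (95% Wilson interval up to 1.03%), and none was nearest to any of the other annotated peaks. Of 8 genes of chromosome Y, Usp9y and Ddx3y were nearest to 4 L1_Rn peaks (1.08%, 95% Wilson interval 0.421 to 2.75%), against 1.16% of RatSatRep2 peaks and 0.538% of the annotated peaks. The Ddx3y assignment was on chromosome 13, from 105480300 to 105481019, with 54 tags and 9.20-fold (95% interval 6.06 to 13.4), and is therefore not at the gene of chromosome Y.

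The 370 L1_Rn peaks were spread over 322 nearest genes, of which 282 had 1 peak, 34 had 2, 5 had 3 and 1 had 5. Genes were counted by symbol. Spink6, on chromosomes 18 and 2, and Map3k7, on chromosomes 9 and 5, were thus each counted as 1 gene with 2 peaks. Whether the other genes lie where the annotation puts them was not checked. The gene with 5 was Cdh10, a cadherin gene on chromosome 2, whose peaks lay between 288 and 3626 kb from its TSS and held 24 to 40 tags, 8.79 to 12.1-fold. The genes with 3 were Usp9y, Arrdc3, an arrestin-domain gene (28, 36 and 26 tags), Dsel, a gene of dermatan sulfate synthesis (30, 30 and 74 tags), Slc6a15, an amino acid transporter gene (46, 84 and 40 tags), and Fundc1 on chromosome X (100, 36 and 62 tags). The Fundc1 peaks were all within 92.5 kb of the TSS, at 40.2, 52.2 and 92.5 kb, much closer than those of Cdh10.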

How the data were processed

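H1T2 ChIP-seq was read from the deposited peak list (rn6). Per the study's methods, read pairs of 150 nt were uniquely aligned with Bowtie2, duplicates were removed and replicates merged. The list header names MACS 2.0.9 with a p-value cutoff of 5e-05, whereas the methods give MACS 1.4.2 and 1e-05. The study's text also speaks of calling replicates separately and of peaks found in both, while the header has merged files only. The deposited signal is the IP pileup, fold enrichment, also deposited, is a ratio of pileup to scaled local background, and the deposited -log10 p-value is the Poisson p-value of the authors' caller. The form of that probability, of a larger pileup, recovered 99.8% of the -log10 p-values within 0.1 and was kept with each pair of tags counted once. On simulated data it called more unchanged peaks than its threshold allows, so that the probability of a pileup at least as large was added as an alternative.

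The authors' repeat names, nearest genes and TSS distances (HOMER 4.7), of which a copy cut off after 1930 rows was available, were joined by chromosome, start and end. 1 symbol stored as a date was restored to Marchf3 by its Entrez number. Columns of values per sample numbered 0. The members and gene lists were chosen with earlier results of these data known. Peaks named were the 10 of smallest p-value, 5 of largest fold enrichment, 5 of largest pileup, 3 longest, those within 5 kb of a TSS, the nearest to another peak, the 3 last, genes with 3 or more peaks, and genes of 4 lists. The member pairs at 5 to 6.5 kb were chosen after the values were seen. Sequence features were not analysed here, since they need an rn6 genome. Python 3.11.15, numpy 2.4.6, pandas 2.3.3, scipy 1.17.1 and matplotlib 3.10.9 were used.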

Additional observations from a re-analysis of the deposited data

How the results depend on the processing

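No paired analysis was possible because the list was called on merged samples and holds no value per replicate, and for the same reason no replicate could be left out. Of 62 alternatives to 13 results, 53 moved a value by less than its 95% interval or a count by less than 1.5 times, and 9 moved it further. With only peaks at or above 25 in -log10 p-value, 140 L1_Rn peaks were left, with a median pileup of 54 tags and a median length of 380 bp, and 1.43% had another such peak within 10 kb. With only peaks of at least 5-fold enrichment, that share was 17.0%. Both filters remove neighbours as well as L1_Rn peaks. The share was 7.20% within 1 kb and 64.5% within 100 kb. The share with another peak at 5 to 6.5 kb, whose alternatives were chosen after seeing the data, was 7.97% for 5.5 to 6 kb, a narrower window, and 6.68% with only neighbours at or above 10 in -log10 p-value. The median fold enrichment stayed between 8.22 and 8.46 under its 5 alternatives. The threshold of 1e-05 was passed by all 389 L1_Rn peaks also with the probability of a pileup at least as large. Like the main count, this was set by the cut, so that no stability is read from it. Depth limits the precision of single peaks, as a fold enrichment of 8.06 from 30 tags has a 95% interval of 4.51 to 13.3 from IP counts alone. For the peak near Picalm with these values, the interval from IP and Input counts together was 3.78 to 16.9.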
